A study of Homo sapiens with 30 samples.

Results

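Mitosis and the G2/M transition were followed here through 60 genes among 20367 gene symbols in the PRO-Seq table. The genes were chosen by name from textbook knowledge of the cell cycle, with earlier results of these data known. All 60 were present, each as 1 transcript. They were sorted by role into 12 cyclins, CDKs and mitotic entry kinases, 2 transcription factors, 4 subunits of the chromosomal passenger complex, 9 genes of the spindle checkpoint and anaphase onset, 7 centromere and kinetochore genes, 8 kinesins, 7 spindle and microtubule proteins, 4 cytokinesis genes and 7 genes of chromosome structure. The cells were G401, a malignant rhabdoid tumor line that lacks SMARCB1, which encodes SNF5, a core subunit of the SWI/SNF remodeler of chromatin. Every sample carried an inducible lentiviral construct, switched on for 24 h by doxycycline at 1 μg/ml, which expressed EGFP as the control, SNF5, or OmoMYC, a dominant-negative form of MYC. PRO-Seq, which counts engaged RNA polymerases, and ATAC-Seq, which marks open chromatin, had 3 samples per construct, and MYC ChIP-Seq had 2. Each construct was expressed in stably transduced G401 cells of this single line. The sources do not say whether samples of a construct came from separate transductions. Every test had the replicate number of the labels as a block. The p-values therefore measure how construct differences varied between the numbers, in these samples only.

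Mitotic genes are transcribed mainly in G2 and M. Cyclin B and CDK1 drive entry into mitosis, polo-like and Aurora kinases build the spindle, the checkpoint holds anaphase until every kinetochore is attached, and the anaphase-promoting complex then destroys cyclin B and securin. Many of these promoters hold a CCAAT box, bound by NF-Y, and a cell cycle genes homology region (CHR), bound by the MuvB core, which pairs with repressive partners in quiescence and with B-MYB and FOXM1 in dividing cells. MYC with its partner MAX binds the E-box CACGTG. The comparisons ask whether restoring SNF5, or blocking MYC with OmoMYC, altered transcription of these genes and access to their promoters.

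RefSeq promoter sequences of GRCh38.p14 were at hand for 51 of the 60 members. In the 250 bases upstream of the start, CCAAT, on either strand, stood in 36 of 51 members, 70.6%, beside 33.0% of 27305 promoters. TTTGAA, the canonical CHR, on either strand, stood in 28 members, 54.9%, beside 13.6%. Its variant TTTAAA stood in 13, 25.5%, beside 11.4%. CCAAT together with either CHR form stood in 29 members, 56.9%, beside 7.85% of all promoters. The E-box CACGTG stood in 7, 13.7%, beside 6.49%. These letters are matches in a fixed window, and occupancy by NF-Y or MuvB was not measured. The 3 members with a MYC peak in both EGFP samples are shown first, as all 250 upstream bases 5′ to 3′, with the E-box, the CCAAT box, the CHR and its variant, read on either strand, in capitals: CCNB1 at chr5:69166900-69167149, PLK1 at chr16:23678639-23678888 and CENPF at chr1:214602945-214603194, all on the plus strand.
CCNB1: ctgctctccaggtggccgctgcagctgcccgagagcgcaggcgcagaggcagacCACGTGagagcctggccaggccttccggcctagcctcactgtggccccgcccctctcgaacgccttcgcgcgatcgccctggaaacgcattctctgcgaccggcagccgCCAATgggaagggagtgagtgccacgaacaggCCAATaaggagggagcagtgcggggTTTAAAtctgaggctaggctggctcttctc
PLK1: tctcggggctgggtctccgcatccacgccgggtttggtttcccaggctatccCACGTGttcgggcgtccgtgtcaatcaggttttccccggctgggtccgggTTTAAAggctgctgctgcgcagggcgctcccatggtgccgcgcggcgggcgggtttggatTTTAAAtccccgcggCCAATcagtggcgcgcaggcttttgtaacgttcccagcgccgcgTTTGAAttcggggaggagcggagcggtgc
CENPF: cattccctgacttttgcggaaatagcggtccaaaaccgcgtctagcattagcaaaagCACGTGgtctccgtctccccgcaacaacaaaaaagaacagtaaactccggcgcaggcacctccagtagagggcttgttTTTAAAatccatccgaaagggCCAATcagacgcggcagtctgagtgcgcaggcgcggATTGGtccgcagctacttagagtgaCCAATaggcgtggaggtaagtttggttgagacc

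Positions in these sequences are counted from the RefSeq start in GRCh38, which need not be the start in the PRO-Seq table. Each of the 3 held an E-box close to the upstream end of the window, CCNB1 at 196 to 191 bases before the start, PLK1 at 198 to 193 and CENPF at 193 to 188. CCAAT and TTTAAA lay nearer to the start. The next 7 sequences, of 150 upstream bases each with the same marks, are members on which the PRO-Seq results turn. ASPM at chr1:197146670-197146819, KIF18A at chr11:28108157-28108306, BUB1 at chr2:110678064-110678213 and CCNA2 at chr4:121823884-121824033 are on the minus strand, and ANLN at chr7:36389712-36389861, CDC20 at chr1:43358831-43358980 and KIF20A at chr5:138178962-138179111 are on the plus strand.
ASPM: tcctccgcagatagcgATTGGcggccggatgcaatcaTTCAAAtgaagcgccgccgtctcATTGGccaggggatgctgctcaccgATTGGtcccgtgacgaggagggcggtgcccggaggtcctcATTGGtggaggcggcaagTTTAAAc
ANLN: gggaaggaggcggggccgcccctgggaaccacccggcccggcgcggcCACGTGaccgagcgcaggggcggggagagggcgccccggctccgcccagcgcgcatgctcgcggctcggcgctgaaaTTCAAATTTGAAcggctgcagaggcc
KIF18A: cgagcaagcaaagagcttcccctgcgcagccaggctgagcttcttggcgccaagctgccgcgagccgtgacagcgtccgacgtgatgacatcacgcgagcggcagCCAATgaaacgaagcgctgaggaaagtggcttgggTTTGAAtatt
BUB1: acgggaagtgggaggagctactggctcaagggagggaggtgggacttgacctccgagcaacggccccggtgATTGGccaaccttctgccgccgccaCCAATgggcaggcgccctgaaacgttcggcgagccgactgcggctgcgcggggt
CCNA2: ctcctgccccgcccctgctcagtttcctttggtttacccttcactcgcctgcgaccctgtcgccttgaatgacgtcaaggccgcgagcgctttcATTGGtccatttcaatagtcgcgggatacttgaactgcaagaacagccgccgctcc
CDC20: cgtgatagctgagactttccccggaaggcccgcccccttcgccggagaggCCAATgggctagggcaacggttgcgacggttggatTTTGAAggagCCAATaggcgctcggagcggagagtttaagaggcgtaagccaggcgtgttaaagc
KIF20A: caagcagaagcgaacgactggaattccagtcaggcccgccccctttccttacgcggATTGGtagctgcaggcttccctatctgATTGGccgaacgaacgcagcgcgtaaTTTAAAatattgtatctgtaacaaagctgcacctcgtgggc
ANLN was the member of this group with an E-box, at 103 to 98 bases before the start, and it lacked CCAAT. The other 6 each held CCAAT or its reverse complement.

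Gene body reads, counted from 1 kb downstream of the start to the end of the gene, numbered 28388012 to 46859674 per PRO-Seq sample. Promoter-proximal reads, from the densest 50-bp window near the start, numbered 517824 to 3381190 and made up 1.49 to 2.01% of the gene body total in samples numbered 1, 9.45 to 11.5% in those numbered 2 and 4.40 to 5.41% in those numbered 3. The replicate number therefore moved with library composition, and every test had the number as a block. Samples of the same number deviated together, and without the block 0 members were called in each of the comparisons given here. SMARCB1 held 11 gene body reads over the 3 EGFP samples, 11 over the 3 OmoMYC samples and 10777 over the 3 SNF5 samples, the order that the labels give.

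In EGFP cells the mitotic genes had a higher median gene body level than all genes. Their median level over the 59 members that passed a mean of 10 gene body reads was 2.55 RPKM, that is reads per kb of gene body scaled by the effective library size (the gene body total times its relative log expression factor), against 1.22 for all genes that passed, and 52 of the 59 were above that all-gene median. CDC20, the activator of the anaphase-promoting complex, and UBE2C, its ubiquitin-conjugating enzyme, had the highest levels at 12.2 ± 2.12 and 12.2 ± 4.59 (SD, n = 3), which do not differ beyond their spread. CDK1 followed at 8.35 ± 1.24, CCNB1 at 7.45 ± 1.45, PLK1 at 6.66 ± 0.728 and CCNA2 at 6.62 ± 0.887, and these neighbours overlap within 1 SD. At the low end of the members that passed were KIF15 at 0.909 ± 0.164 and CDC25B, a phosphatase that activates CDK1, at 0.834 ± 0.210.

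The pausing index, promoter-proximal read density over gene body density, spread widely among the 58 members with a mean of 10 reads in both regions. In EGFP cells it was highest at NCAPD2, a condensin subunit, at 321 ± 305 (SD, n = 3), and at ESPL1, the protease separase, at 305 ± 394. It was lowest at CDC20 at 4.28 ± 1.94 and at ECT2, a cytokinesis gene, at 5.05 ± 1.23. The index moved with the replicate number: the median over the members was 10.6 in EGFP sample 1, 73.7 in sample 2 and 51.1 in sample 3, against 9.36, 45.2 and 27.9 for all genes. Of the 58, 37 lay above the median of all genes.

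When SNF5 was induced, most mitotic genes were not called as changed in the gene body, while genes such as ASPM, ANLN, KIF18A and BUB1 rose and ESPL1, SPC24, NCAPH and KIF15 fell. Of 59 members tested, 9 rose and 4 fell in edgeR's quasi-likelihood test with Benjamini-Hochberg adjustment over 15060 genes. That is 22.0% of the members, where 34.1% of all genes were called, 17.6% higher and 16.5% lower. The median member changed by −0.01 on the log2 scale, beside −0.03 for all genes. The members ranged from −0.31 (SPC24) to 0.55 (ASPM), and the 95% interval lay within 1 log2 unit of 0 for all 59 and within 0.5 for 55. The split was 9 higher and 9 lower with TMM factors, 30.5% of the members, where 35.9% of all genes were called.

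ASPM, a spindle pole protein needed for symmetric division, rose most. Its gene body level was 187, 233 and 104 RPM, reads scaled by the effective library size, in EGFP samples 1 to 3 and 290.5, 308 and 158 in SNF5 samples 1 to 3. Each SNF5 sample was above the EGFP sample of its number, but the groups overlapped since both number 3 samples were low. The change was 1.46-fold, log2 0.55 ± 0.07 (SE, n = 3), adjusted p = 0.000821 by edgeR. ANLN, the actin-binding anillin of the cleavage furrow, read 149, 149 and 91.7 RPM in EGFP and 188, 180.1 and 116 in SNF5 cells, a rise of 1.25-fold (log2 0.32 ± 0.05, adjusted p = 0.00176 by edgeR). ECT2 read 148, 144 and 97.1 against 172, 168 and 122, a rise of 1.19-fold (log2 0.25 ± 0.05, adjusted p = 0.00611 by edgeR). Both cytokinesis genes were higher at all 3 numbers, and the other 2 genes of that role, RACGAP1 and CEP55, changed by −0.01 and −0.08 and were not called.

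KIF18A, the kinesin that shortens kinetochore microtubules, read 222, 249 and 189.6 RPM in EGFP cells and 259, 304.5 and 258 in SNF5 cells. The 2 groups did not overlap, and the rise was 1.25-fold (log2 0.32 ± 0.06, adjusted p = 0.00325 by edgeR). BUB1, a checkpoint kinase at kinetochores, read 126, 148 and 106 against 156, 168 and 153, again without overlap, a rise of 1.27-fold (log2 0.34 ± 0.08, adjusted p = 0.0106 by edgeR). CCNB2, the second B-type cyclin, read 46.05, 38.2 and 33.3 against 54.3, 47.55 and 40.6, with overlap, and rose 1.21-fold (log2 0.28 ± 0.06, adjusted p = 0.00939 by edgeR). SMC4 of condensin, HMMR of the spindle and NUF2 of the NDC80 kinetochore complex also rose, by 0.21, 0.22 and 0.21 on the log2 scale.

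The 4 members that fell were ESPL1 (log2 −0.29 ± 0.08), SPC24 of the NDC80 complex (−0.31 ± 0.10), the condensin subunit NCAPH (−0.20 ± 0.06) and the kinesin KIF15 (−0.18 ± 0.06). SPC24, KIF18A and BUB1 were the 3 members whose SNF5 and EGFP samples did not overlap, 5.08% of the 59, where 19.1% of all genes did not. The sign was the same at all 3 numbers for 32 members, 54.2%, where the share of all genes was 59.1%. The 9 risers had a median length of 40.3 kb and a maximum of 87.6 kb, the 4 members that fell a median of 32.6 kb and a maximum of 91.5 kb, and the 46 not called a median of 28.9 kb and a maximum of 130.9 kb. Over the 59 members, gene length and log2 change had a Pearson r of 0.328 and a Spearman coefficient of 0.327, beside 0.280 and 0.378 over all 15060 genes. These are descriptions across genes that share libraries, and the part of length in the calls was not tested.

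**Figure D1:**
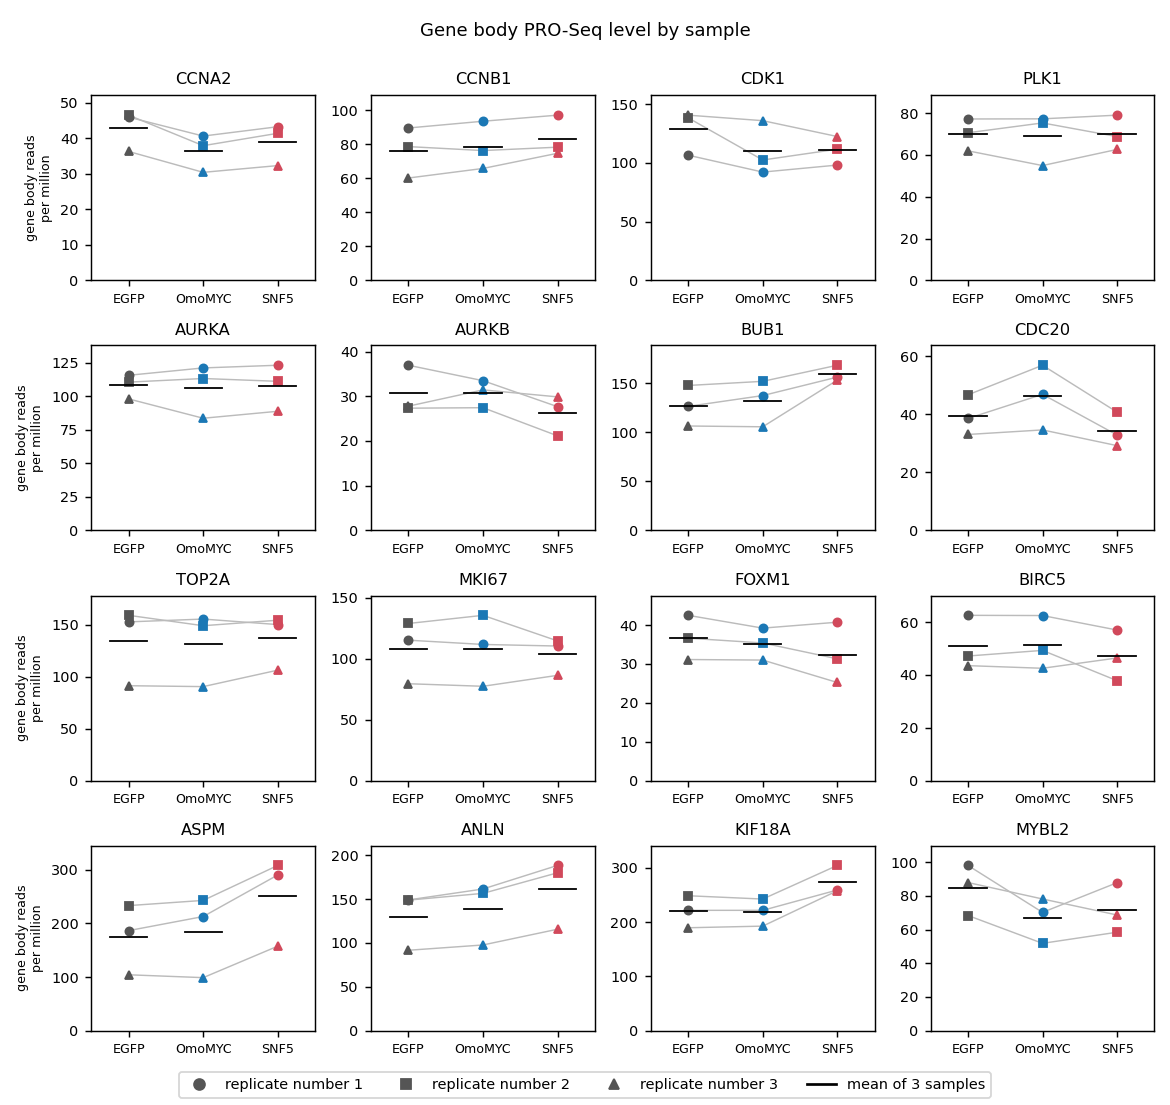
Gene body PRO-Seq reads in RPM (vertical axis, from 0) for 16 members in the EGFP, OmoMYC and SNF5 samples, with a marker for each replicate number, grey lines joining samples of a number and a black bar at the mean of 3. ASPM, ANLN and KIF18A are higher in SNF5 at every number, while the samples numbered 3 are the lowest of each construct for ASPM, ANLN, TOP2A and MKI67.

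Of the 12 cyclins, CDKs and mitotic entry kinases, CCNB2 was the 1 called in this comparison. CDK1 read 107, 138 and 141 RPM in EGFP cells and 98.2, 112 and 122.5 in SNF5 cells, lower at all 3 numbers with overlap (log2 −0.21 ± 0.08, adjusted p = 0.0596 by edgeR). CCNB1, which encodes cyclin B1, read 89.7, 78.7 and 60.2 against 97.2, 78.4 and 74.8, and its change was 0.14 ± 0.07 (adjusted p = 0.134 by edgeR). CCNA2, which encodes cyclin A2, read 45.99, 46.5 and 36.3 against 43.3, 41.4 and 32.3, a change of −0.14 ± 0.06 (adjusted p = 0.1045 by edgeR). PLK1, the polo-like kinase, read 77.2, 70.6 and 61.9 against 78.99, 68.7 and 62.6. Its change had a 95% interval of −0.15 to 0.16. AURKA read 116, 111 and 98.2 against 123, 111 and 88.9, and the interval ran from −0.17 to 0.14.

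Aurora B (AURKB), the kinase of the chromosomal passenger complex, read 36.9, 27.3 and 27.8 in EGFP and 27.7, 21.15 and 29.9 in SNF5 cells, lower at numbers 1 and 2 and higher at number 3 (log2 −0.22 ± 0.10, adjusted p = 0.126 by edgeR). BIRC5, or survivin, of the same complex read 62.6, 47.15 and 43.5 against 56.99, 37.8 and 46.4 with the same pattern over numbers (log2 −0.11 ± 0.09, adjusted p = 0.367 by edgeR). None of the 4 subunits was called. CDC20 read 38.6, 46.75 and 33.1 against 32.9, 40.8 and 29.2, lower at all 3 numbers (log2 −0.20 ± 0.07, adjusted p = 0.0592 by edgeR). TOP2A, the topoisomerase of chromosome condensation, read 153, 159 and 91.3 against 150.2, 154 and 106, and the proliferation marker MKI67 read 115, 129 and 79.45 against 110.4, 115 and 86.3. Both were lower at numbers 1 and 2, higher at number 3 and not called. FOXM1, the factor that activates G2/M genes, read 42.5, 36.6 and 31.1 against 40.7, 31.3 and 25.2, and MYBL2, which encodes B-MYB, read 98.05, 68.3 and 87.9 against 87.8, 58.4 and 68.6. Each was lower at all 3 numbers, with log2 changes of −0.19 ± 0.08 and −0.24 ± 0.09 and adjusted p-values of 0.0876 and 0.0600 by edgeR.

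**Figure D2:**
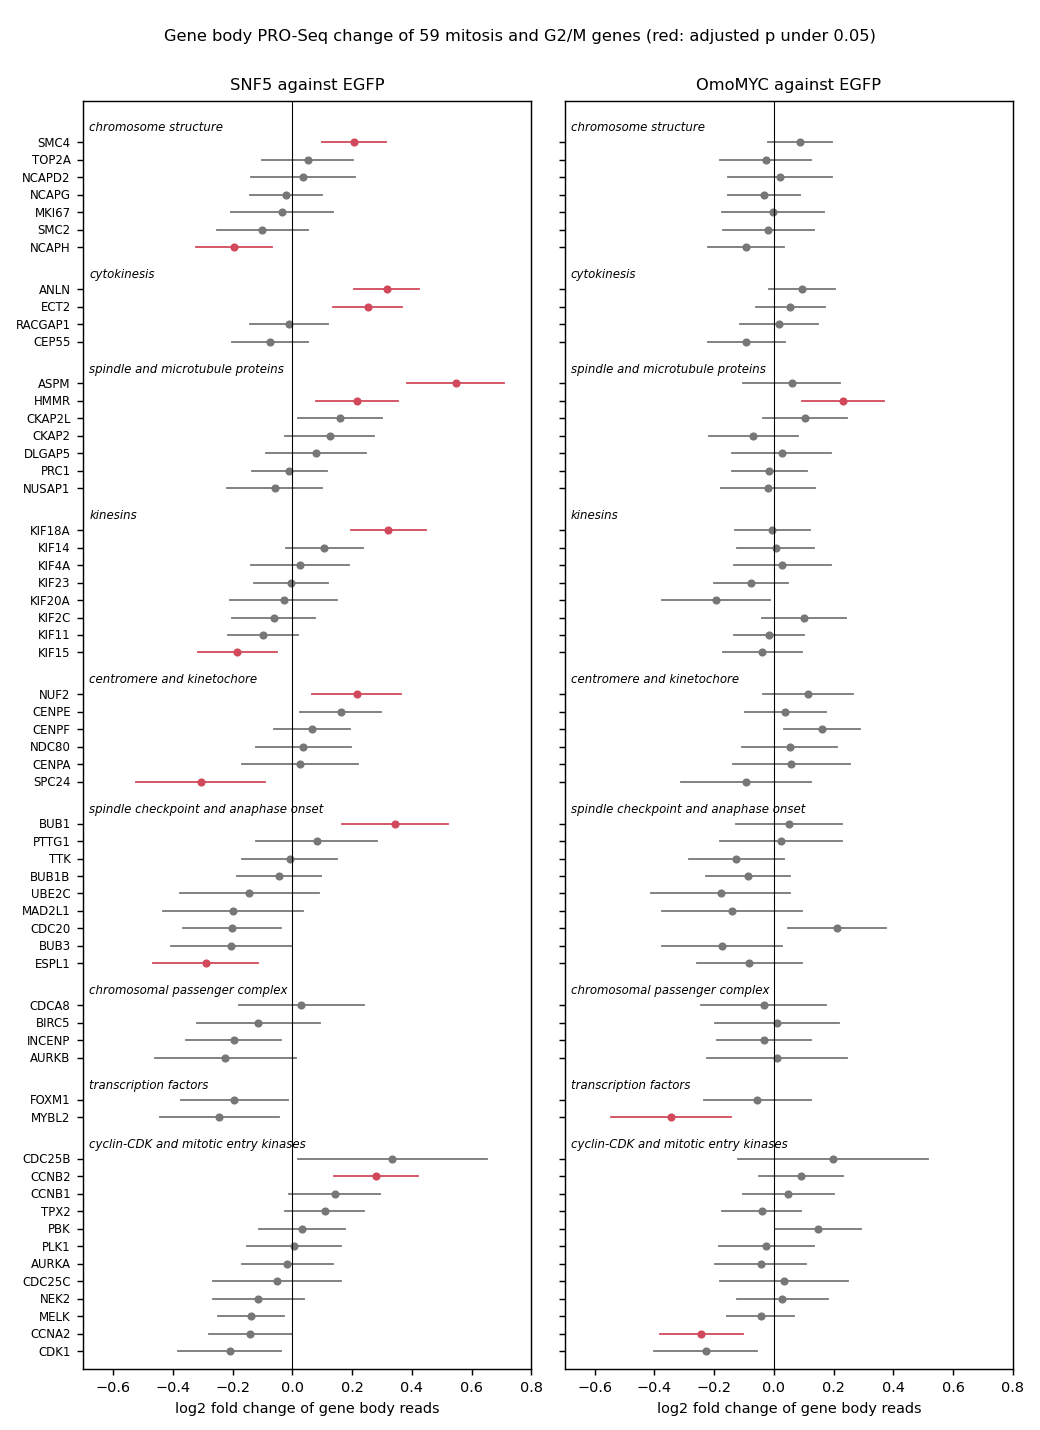
Log2 fold change of gene body reads (horizontal axis) with 95% intervals for the 59 members tested, grouped by role, in SNF5 against EGFP (left) and OmoMYC against EGFP (right), with members of adjusted p under 0.05 in red. Members lie on both sides of 0 in most roles, from −0.31 to 0.55 on the left and from −0.34 to 0.23 on the right, and 13 and 3 of them are red.

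With OmoMYC in place of EGFP, 3 members changed in the gene body. HMMR rose, and CCNA2 and MYBL2 fell, which is 5.08% of the 59, where 8.53% of all genes were called, 4.1% higher and 4.42% lower. CCNA2 read 40.65, 37.9 and 30.4 RPM with OmoMYC against the EGFP values above, lower at all 3 numbers with overlap, a fall to 0.845-fold (log2 −0.24 ± 0.06, adjusted p = 0.0454 by edgeR). MYBL2 read 70.2, 51.8 and 78.1, a fall to 0.787-fold (log2 −0.34 ± 0.09, adjusted p = 0.0473 by edgeR). HMMR read 67.3, 80.8 and 34.8 in EGFP and 83.3, 97.55 and 37.6 in OmoMYC cells, a rise to 1.18-fold (log2 0.23 ± 0.06, adjusted p = 0.0496 by edgeR). All 3 adjusted p-values lay just under 0.05. With gene body totals alone as the scale, 2 members rose and 0 fell, and with TMM factors 0 rose and 2 fell. Each is 3.39% of the members, where 8.27% and 8.75% of all genes were called.

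CDK1 read 92.2, 102.5 and 136 with OmoMYC, lower than EGFP at all 3 numbers (log2 −0.23 ± 0.08, adjusted p = 0.0885 by edgeR), and was not called. CCNB1 read 93.65, 76.4 and 65.9, PLK1 77.2, 75.3 and 54.9, AURKA 121, 113 and 83.7, and AURKB 33.5, 27.4 and 31.4. BUB1 read 137, 152 and 106, TOP2A 155.5, 149 and 90.45, MKI67 112, 136 and 77.4, FOXM1 39.2, 35.4 and 30.99, and BIRC5 62.5, 49.3 and 42.5. These 9 had log2 changes between −0.06 and 0.05 and were not called. The 95% interval lay within 0.5 log2 units of 0 for 57 of the 59 members. The number of members with no overlap between OmoMYC and EGFP samples was 0 of 59, where the share of all genes was 11.4%, and 30 members, 50.8%, had 1 sign at all 3 numbers, where 54.4% of all genes did.

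SNF5 and OmoMYC were also compared directly. ASPM, KIF18A, ANLN, ECT2 and BUB1 were higher with SNF5 and CDC20 was lower, which is 10.2% of the 59, where 18.9% of all genes were called, 11.5% higher and 7.38% lower. ASPM read 213, 243 and 98.9 RPM with OmoMYC and was higher with SNF5 (log2 0.49 ± 0.07, adjusted p = 0.00211 by edgeR). KIF18A read 222, 242.5 and 193 with OmoMYC and was 1.25-fold higher with SNF5, without overlap (log2 0.33 ± 0.06, adjusted p = 0.00459 by edgeR). ANLN, ECT2 and BUB1 were 1.17-, 1.15- and 1.22-fold higher, all at adjusted p-values between 0.0131 and 0.0318 by edgeR. CDC20 read 46.9, 56.96 and 34.7 with OmoMYC, above EGFP at all 3 numbers, while SNF5 was below EGFP at all 3. The direct difference was 0.750-fold (log2 −0.41 ± 0.07, adjusted p = 0.00506 by edgeR), and CDC20 was called in neither comparison with EGFP.

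The samples of KIF18A, BUB1 and SPC24 did not overlap between SNF5 and OmoMYC, 5.08% of the 59, where the share of all genes was 14.6%, and 29 members, 49.2%, had 1 sign at all numbers, where it was 56%. With gene body totals alone as the scale, 3 members were higher and 5 lower with SNF5, in place of 5 and 1. These calls were 13.6% of the members, where 22.1% of all genes were called. Both comparisons with EGFP share the EGFP samples, so their members' changes are given side by side and not correlated. Without the 3 samples numbered 3, 32 of the 59 members were called in SNF5 against EGFP, 12 higher and 20 lower. That is 54.2%, beside 56.9% of all genes. In OmoMYC against EGFP and SNF5 against OmoMYC, 17 and 24 were called, 28.8% and 40.7%, beside 45% and 41.7% of all genes. Without number 1 or number 2, 2 and 4 members were called in SNF5 against EGFP, 3.39% and 6.78%, beside 11% and 9.56% of all genes.

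Other genes of mitosis, from lists chosen by function, gave these counts in SNF5 against EGFP, where 17.6% of all genes were called higher and 16.5% lower. Of 16 measured genes of the anaphase-promoting complex, 0 rose and 2 fell, ANAPC2 (log2 −0.32) and ANAPC11 (−0.57). Of 13 cohesin genes, NIPBL, the cohesin loader, rose by 0.19, and CDCA5, or sororin, and PDS5A fell by 0.63 and 0.19. Of 30 further kinetochore and centromere genes, 1 rose, CENPT (0.51), and 7 fell, among them CENPM (−0.58), ERCC6L (−0.49) and ZWINT (−0.41). Of 20 MuvB, DREAM and mitotic entry regulators, 1 rose, MYBL1 (0.59), and 4 fell, among them PKMYT1 (−0.42), the kinase that inhibits CDK1. Of the 3 other condensin subunits, NCAPD3 fell by 0.24. The list medians lay between −0.19 and −0.04.

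DNA replication genes, which are transcribed earlier in the cell cycle, at G1/S, were measured for comparison. Of 48 tested, 26 fell and 0 rose with SNF5, where 16.5% of all genes were called lower and 17.6% higher, among them MCM7 (log2 −0.57 ± 0.07) and TIMELESS (−0.55 ± 0.09), and their median was −0.29, beside −0.01 for the mitotic members and −0.03 for all genes. With OmoMYC, 15 of 48 fell and 0 rose, where 4.42% of all genes were called lower and 4.1% higher, among them MCM4 (−0.60 ± 0.15) and MCM6 (−0.42 ± 0.09), with a median of −0.26, while the mitotic members had 2 falls and 1 rise of 59. In SNF5 against OmoMYC, 1 replication gene was higher and 2 were lower, where 11.5% and 7.38% of all genes were. No test of the difference between the lists was made, and the lists were chosen with earlier results of these data known. MCM6 itself differed between the constructs, 0.42 ± 0.09 higher with SNF5 than with OmoMYC (adjusted p = 0.01465 by edgeR).

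**Figure D3:**
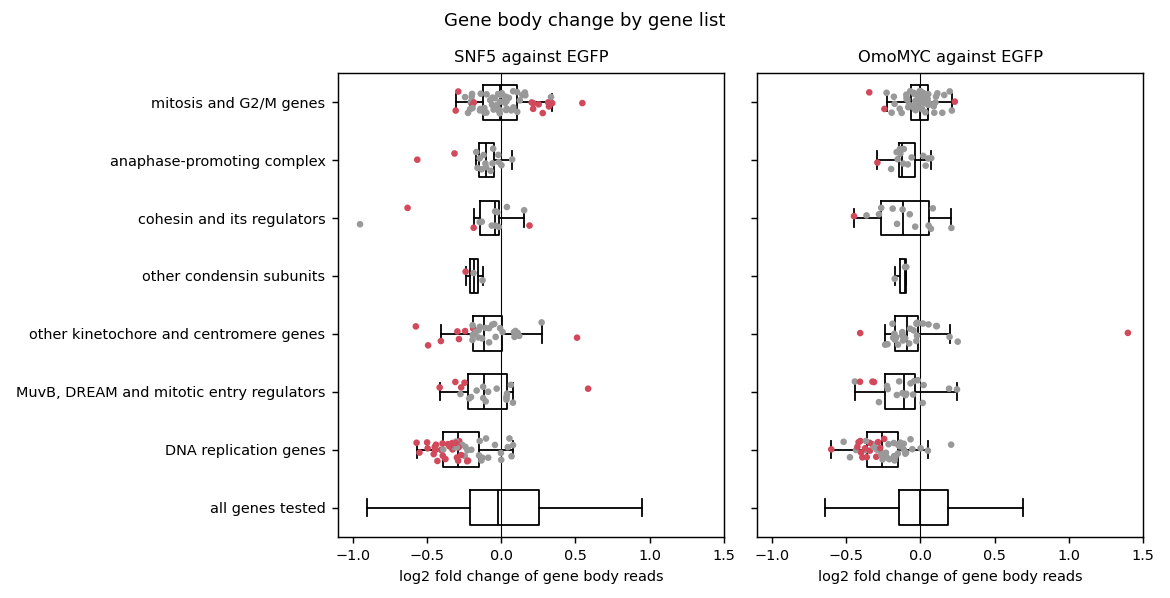
Log2 fold change of gene body reads (horizontal axis) for the 60-gene mitosis list and 6 other lists, 1 point per gene tested, red at adjusted p under 0.05, with boxes for quartiles and whiskers for the remaining range without outlying values, in SNF5 (left) and OmoMYC (right) against EGFP. The mitotic members centre near 0, with a median of −0.01 on the left, and the DNA replication genes lie mostly below 0, at −0.29 and −0.26.

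Promoter-proximal polymerase changed at few mitotic genes. In SNF5 against EGFP, KIF20A and NUF2 rose, which is 3.45% of the 58, where 4.27% of 11241 genes were called, 2.64% higher and 1.63% lower. KIF20A, a kinesin of the central spindle, read 0.837, 3.84 and 2.14 promoter-proximal RPM, on the gene body scale, in EGFP samples 1 to 3 and 1.31, 8.47 and 3.23 in SNF5 samples, higher at each number and overlapping across numbers (1.77-fold, log2 0.82 ± 0.22, adjusted p = 0.0297 by edgeR). NUF2 read 1.07, 7.64 and 2.635 against 2.28, 13.4 and 3.59 (1.68-fold, log2 0.74 ± 0.22, adjusted p = 0.04425 by edgeR). The precision was lower than for gene bodies, with a median SE of 0.22 against 0.07, and 7 of the 58 intervals lay within 0.5 log2 units of 0.

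In OmoMYC against EGFP, 0 of 58 members passed the promoter-proximal test by edgeR, where 1.8% of all genes did. The unadjusted p was under 0.05 for 8 of the 58 members, where it was for 1740 of 11241 genes. DESeq2 also called 0 members, where it called 1.14% of all genes. CENPE, a kinetochore kinesin, and CCNA2 had the smallest p-values, with log2 changes of 0.66 ± 0.22 (adjusted p = 0.117 by edgeR) and 0.64 ± 0.22 (adjusted p = 0.146). In SNF5 against OmoMYC, 0 members passed, where 0.827% of all genes did, and DESeq2 called 0 members and 0.543% of all genes. An unadjusted p under 0.05 was found for 3 of the 58 members, where it was for 1550 of 11241 genes. The smallest p-values were those of CENPA, the centromeric histone, at −0.52 ± 0.21 (adjusted p = 0.250 by edgeR), and CKAP2 at −0.53 ± 0.23 (adjusted p = 0.290). The median of all genes was 0.13 in OmoMYC against EGFP and −0.17 in SNF5 against OmoMYC, and it became −0.03 and 0.0006 with promoter-proximal counts scaled by their own totals. The members' medians, 0.12 and −0.16, became −0.04 and 0.01, and so moved with all genes.

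The pausing index changed at 3 members with SNF5, 5.17% of 58, where 3.66% of 11171 genes were called, 2.02% higher and 1.64% lower. KIF20A rose from 4.93, 16.7 and 16.7 in EGFP samples 1 to 3 to 7.88, 37.4 and 25.9 in SNF5 samples (1.81-fold, log2 0.85 ± 0.25, adjusted p = 0.0350 by edgeR). FOXM1 rose from 4.26, 32.3 and 12.05 to 8.31, 75.8 and 18.4 (1.91-fold, log2 0.93 ± 0.28, adjusted p = 0.0458 by edgeR). Its promoter-proximal counts were low in the first number, 17 reads in EGFP sample 1. ASPM fell from 8.76, 23.1 and 11.7 to 3.78, 15.9 and 6.49 (0.566-fold, log2 −0.82 ± 0.25, adjusted p = 0.04885 by edgeR). Its gene body reads rose, as given above, while its promoter-proximal change was −0.30 ± 0.24 and not called.

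With OmoMYC, the pausing index rose at CCNA2, the 1 member called of 58, 1.72%, where 2.26% of all genes were called. It read 2.85, 11.2 and 5.71 in EGFP, 4.34, 21.7 and 11.5 in OmoMYC and 2.894, 16.2 and 8.47 in SNF5 samples. OmoMYC was above EGFP at each number, and the fitted rise was 1.85-fold (log2 0.89 ± 0.24, adjusted p = 0.0344 by edgeR), beside a median log2 change of 0.14 over all genes. SNF5 differed from EGFP by 0.41 ± 0.24 (adjusted p = 0.366 by edgeR). This call and the 3 with SNF5 were not made by DESeq2 or when only the 2 constructs were fitted. In SNF5 against OmoMYC, 0 members were called, where 1.23% of all genes were. The unadjusted p was under 0.05 for 6 of the 58 members, where it was for 1544 of 11171 genes. DESeq2 called 0 members and 0.358% of all genes. Of the members, CKAP2 (−0.70 ± 0.21) and ASPM (−0.80 ± 0.25) had the smallest p-values.

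**Figure D4:**
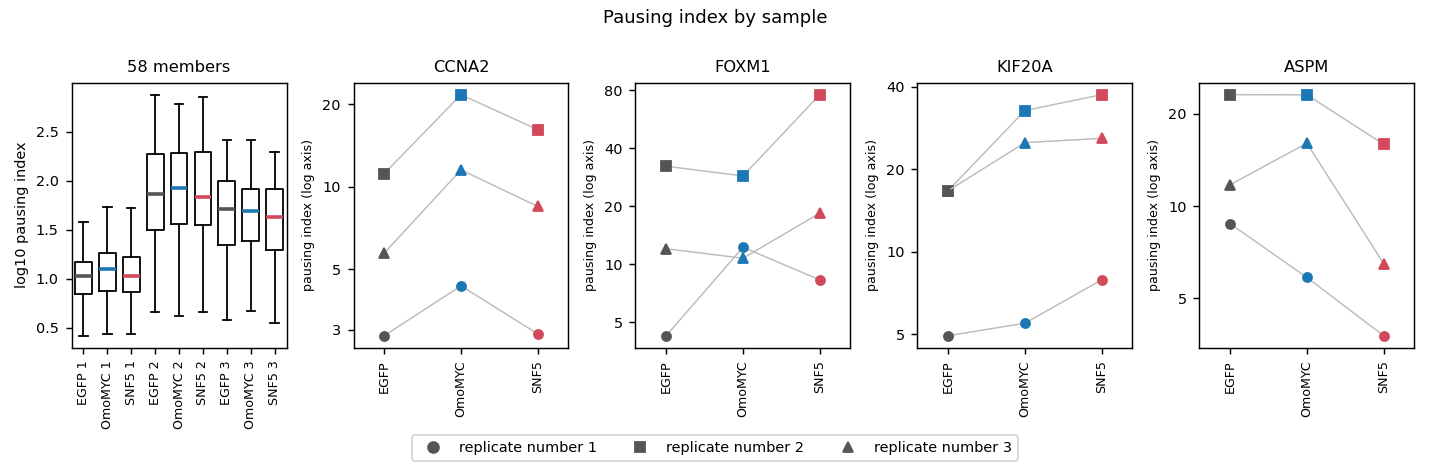
Left, log10 pausing index of the 58 members in each of 9 PRO-Seq samples, ordered by replicate number, with boxes for quartiles, and right, the pausing index on log axes for CCNA2, FOXM1, KIF20A and ASPM, with lines joining samples of a number. The members' median follows the replicate number, between 10.6 and 12.5 in samples numbered 1 and between 68.6 and 83.9 in those numbered 2, and ASPM is lowest with SNF5 at each number.

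MYC peaks at the mitotic starts were found in EGFP cells and not in the SNF5 lists. A peak counted when its summit lay within 1 kb of the start in the PRO-Seq table, in hg19. EGFP sample 1 had 940 peaks and 3 members with a peak, 5.0%, beside 4.35% of all genes. EGFP sample 2 had 5396 peaks and 26 members with a peak, 43.3%, beside 23.13%. A peak in either EGFP sample stood at the same number of members, 26, beside 23.2% of all genes and 30.0% of those with a mean of 10 gene body reads. The SNF5 samples had 137 and 27 peaks and 0 of 60 members, beside 0.61% and 0.08% of all genes, and the OmoMYC lists held 0 usable peaks. The lists give no read depth, so from them alone the lower number of members cannot be told apart from the lower number of peaks called. The paper gives the depth and compared reads, scaled to total mapped reads, over a combined set of peaks. It reported reduced MYC binding across the genome with SNF5 and with OmoMYC. Reads at the members' starts were not counted here.

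CCNB1, PLK1 and CENPF had a peak in both EGFP samples, which is 5.0% of the 60, where 4.31% of all genes and 5.52% of the 15060 with a mean of 10 gene body reads did. The summit at CCNB1 was at chr5:68462771 in sample 1, 66 bp upstream of the start, with a fold enrichment of 4.53, and 21 bp upstream with 7.93 in sample 2. At PLK1 it was 218 and 121 bp upstream with 5.31 and 9.09, and at CENPF 150 and 81 bp upstream with 5.51 and 5.93. These distances are from the start in the PRO-Seq table, so they cannot be set against the E-box positions counted from the RefSeq start. A CACGTG in the GRCh37 sequence lay within 100 bp of all 3 summits in sample 1, and within 100 bp of 5 of the 26 in sample 2, namely CCNB1, PLK1, FOXM1, UBE2C and ANLN. At CCNB1 it lay 10 bp from the summit in sample 1 and 35 bp from that in sample 2. The share over all peaks of these samples was not counted.

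The 26 members with a peak in EGFP sample 2 came from every role. They were the entry genes CCNA2, CCNB1, PLK1 and AURKA, the factor FOXM1, the passenger subunits AURKB, INCENP and BIRC5, the checkpoint and anaphase genes MAD2L1 and UBE2C, and CENPA and CENPF of the centromere and kinetochore. The kinesins were KIF2C, KIF15, KIF20A and KIF23, the spindle genes NUSAP1, PRC1, HMMR and CKAP2, the cytokinesis genes RACGAP1 and ANLN, and the condensin genes SMC2, NCAPG, NCAPD2 and NCAPH. Fold enrichment ran from 3.18 at SMC2 to 9.09 at PLK1, with a median of 5.21 beside 5.15 for the whole list, and 21 of the 26 summits lay within 250 bp of the start. In SNF5 against EGFP, 2 of these 26 rose in the gene body (ANLN and HMMR) and 2 fell (KIF15 and NCAPH), with a median of −0.03, where 17.6% of all genes were called higher and 16.5% lower. Of the 33 tested members without a peak, 7 rose and 2 fell, with a median of 0.03. With OmoMYC the counts were 1 higher and 1 lower of 26, and 0 higher and 1 lower of 33, where 4.1% of all genes were called higher and 4.42% lower.

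Most mitotic starts had an ATAC peak in each construct. With the GRCh38 starts of RefSeq, 52 of 60 members had an ATAC peak in at least 2 of 3 EGFP samples, 86.7%, beside 41.3% of 16103 genes and 51.6% of those with a mean of 10 gene body reads. The counts were 51 with OmoMYC and 57 with SNF5, 85.0% and 95.0%, beside 39.7% and 51.5% of all genes. Of the genes with a mean of 10 gene body reads, 49.4% and 63.5% had such a peak. A peak stood in all 9 samples at 44 members, 73.3%, beside 25.2% of all genes and 31.9% of those with that mean. The SNF5 lists were longer, with 22722 to 33596 peaks against 7260 to 23684 in the other 6 samples. With the 7260 strongest peaks of each sample, the counts were 43 with EGFP, 43 with OmoMYC and 45 with SNF5. All genes were not counted under this rule.

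Peaks were missing in 1 or more samples at 14 members, and at 2 others, SMC2 and RACGAP1, the RefSeq start had no peak in any sample. Counting any GENCODE start, 54, 53 and 59 members passed the same count of samples with EGFP, OmoMYC and SNF5. The share of all genes at any GENCODE start was not counted. ESPL1 had a peak in 1 EGFP, 0 OmoMYC and 1 SNF5 sample, BIRC5 in 1, 0 and 2, FOXM1 in 1, 1 and 2, and AURKB in 1, 1 and 3. At CDK1, by contrast, all 9 samples had a peak, with fold enrichments of 8.95 to 13.5, and at CCNB1 they ran from 7.51 to 13.5. The 7 members shown by sequence for their PRO-Seq values, ASPM, ANLN, KIF18A, BUB1, CCNA2, CDC20 and KIF20A, each had a peak in all 9 samples.

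SPC25, the partner of SPC24 in the NDC80 complex, differed from the other members. The PRO-Seq table lists it with 0 promoter-proximal reads in all 9 samples and 0 to 2 gene body reads per sample, 11 in all, so it entered no test. Yet an ATAC peak lay at its start in all 9 samples, with fold enrichments of 7.48 to 13.6, a median of 12.4 that is the highest of the members, and its promoter held both CCAAT and TTTGAA. Of 4054 genes with an ATAC peak in all 9 samples, 112, or 2.76%, had a mean under 10 gene body reads. The table lists 1548 of 20367 symbols at 0 in all 18 count columns, among them DDX5, EIF4H, DKC1 and HYOU1, 4 genes that most cells use. SPC25 is therefore reported only as listed near 0.

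**Figure D5:**
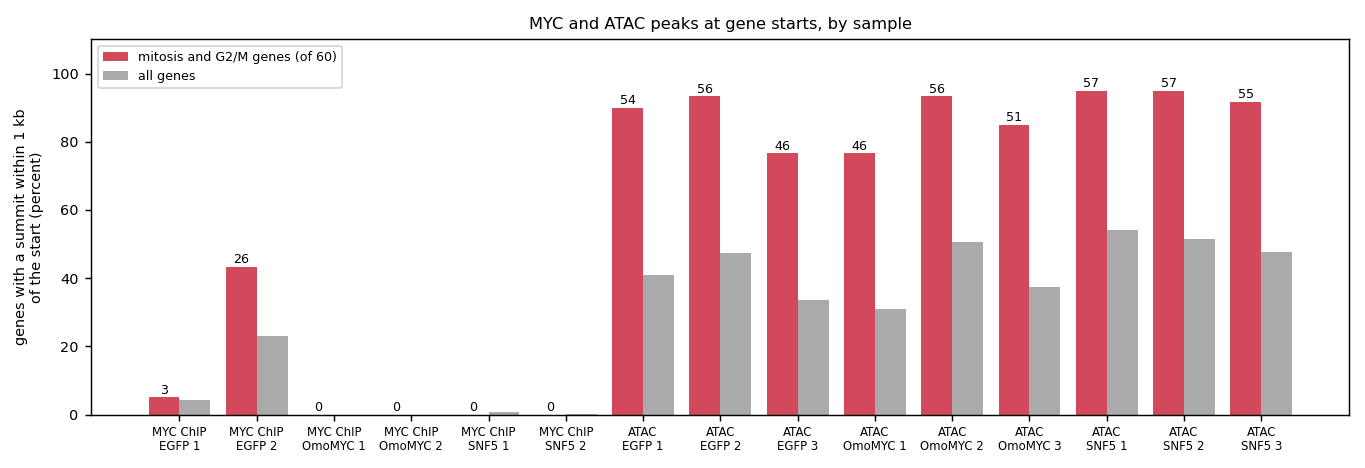
Percent of genes (vertical axis, from 0) with a peak summit within 1 kb of the start in each MYC ChIP-Seq and ATAC-Seq sample, in red for the 60 mitosis and G2/M genes with the number of members above the bar, and in grey for all genes. MYC peaks reach 26 members in EGFP sample 2 and 0 in the SNF5 and OmoMYC samples, and ATAC peaks reach 46 to 57 members in all 9 samples.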

How the data were processed

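PRO-Seq, ATAC-Seq and MYC ChIP-Seq were analysed from the processed files. The authors trimmed reads with cutadapt and aligned them with Bowtie2. They deposited raw PRO-Seq counts per transcript in hg19, in a promoter-proximal window of 50 bp and in the gene body from 1000 bp to the gene end. The gene body density in reads per bp was deposited too. It entered the pausing index values printed here, while the tests used the counts. Peaks were called per sample with MACS2, and the deposited lists give the ratio of fold enrichment and −log10 p- and q-values, in hg19 for ChIP-Seq and hg38 for ATAC-Seq. The MYC lists for OmoMYC hold a placeholder without peaks. The deposited columns of other kinds give positions and lengths.

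Counts were tested with edgeR 4.0.16 in R 4.3.3 by the quasi-likelihood test, with gene body totals times relative log expression factors as library sizes for both regions, all 9 samples in 1 fit and the replicate number as a block. Genes with a mean of at least 10 counts were kept, and p-values were adjusted by Benjamini-Hochberg over all of them. A call is an adjusted p under 0.05. Each SE was derived from the test statistic of the same blocked fit of all 9 samples. The pausing index was tested as the interaction of region and construct. The fits were run on simulated counts whose planted changes were larger than any gene body change of the members. Their spread came from the same blocked fit, so this run cannot show that the block or the calls given here are right. The numbers were taken to pair samples since deviations from construct means correlated at 0.836 to 0.927 within a number in gene bodies and at −0.729 to 0.184 between numbers. The deviations of a construct sum to 0, which by itself lowers the values between numbers, so these are no separate evidence of pairing. Alternatives included DESeq2 1.42.0, TMM factors, other scalings, no filter, other peak windows and leaving out each number. Promoters came from RefSeq, GRCh38.p14, and 9 members had no match. The genes given by sample were 12 well-known members, up to 6 called members of smallest adjusted p per comparison (the 2 of smallest p where 0 were called), members with a MYC peak and those of highest or lowest level, and the other called genes are named with their change. The members and lists were chosen with earlier results of these data known.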

Additional observations from a re-analysis of the deposited data

How the results depend on the processing

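The replicate number as a block decided the calls. With no replicate block, 0 members were called in gene bodies for SNF5 against EGFP, OmoMYC against EGFP and SNF5 against OmoMYC, 0 in the promoter-proximal region and 0 for the pausing index with SNF5 or OmoMYC, and over all genes the gene body calls were 225, 1 and 75 in place of 5131, 1284 and 2848. At an adjusted p under 0.0001 the members called were also 0 in each. In gene bodies, 1.02%, 0.00664% and 0.385% of all genes were called at that threshold. Leaving out the samples of 1 number gave 2 to 32 members in gene bodies for SNF5 against EGFP, 0 to 17 for OmoMYC against EGFP and 1 to 24 for SNF5 against OmoMYC, with the highest count each time without number 3, and 1428 to 8493, 2 to 6716 and 748 to 6230 genes. In the promoter-proximal region the range was 0 to 3 for SNF5 and 0 to 1 for OmoMYC against EGFP. Of all genes it was 0.427 to 8.69% and 0.0273 to 7.95%. For the pausing index the range was 0 to 3, 0 to 3 and, for SNF5 against OmoMYC, 0 to 1 members. Of all genes it was 0.0365 to 5.45%, 0 to 8.62% and 0.0548 to 4.37%. With no filter, 1 member was called for OmoMYC in gene bodies, 1.67%, where 7.57% of all genes were called. DESeq2 called 2079 genes there and 1943 were called with only the 2 constructs compared. For SNF5 against EGFP in gene bodies, 9 members were higher and 6 lower with gene body totals alone, 9 and 5 with DESeq2, and 7 and 2 with only the 2 constructs compared. That is 25.4%, 23.7% and 15.3% of the members, where 34.7%, 33.9% and 24.5% of all genes were called. In the promoter-proximal region with SNF5, gene body totals alone gave 1 member and promoter-proximal counts scaled by their own totals gave 4. That is 1.72% and 6.9% of the members, where 3.89% and 8.83% of all genes were called. For the pausing index, DESeq2 gave 0 members with SNF5 and 0 with OmoMYC, where 0.904% and 0.618% of all genes were called. A fit of only the 2 constructs compared gave 0 and 0, where 1.57% and 1.55% of all genes were called. The own scaling gave 0 with OmoMYC, where 1.73% of all genes were called. The fit of only 2 constructs gave 2 members in SNF5 against OmoMYC, 3.45%, where 2.92% of all genes were called. A MYC peak in either EGFP sample, or in sample 2 alone, gave 26 members in place of 3. The cause of these changes was not tested. Of 258 values for single named genes, 160 kept their direction and side of the threshold, 98 kept the direction only and 0 reversed. The median SE of a member's log2 change was 0.07 in gene bodies and 0.23 for the pausing index, where promoter-proximal reads numbered 517824 to 3381190 per sample.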
